A study of Mus musculus with 8 samples.

Results

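Cohesin is the ring-shaped protein complex that holds sister chromatids together, and germ cells build it from meiosis-specific as well as general subunits. Transcript levels of 10 cohesin genes, out of 21058 genes in the deposited tables, were set side by side in pachytene spermatocytes of *Arid1a* WT and *Arid1a* cKO mice. The genes were taken by name: the kleisins *Rec8*, *Rad21l* and *Rad21*, the SMC subunits *Smc1b* and *Smc3*, the STAG subunits *Stag3*, *Stag1* and *Stag2*, the centromeric protector *Sgo2a* and the release factor *Wapl*. All 10 had a row in the tables and passed the filter on low counts.

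A cohesin ring consists of a pair of SMC proteins joined at one end by their hinges and closed at the other by a kleisin, to which a STAG protein binds. In meiosis, rings with the kleisins REC8 or RAD21L, with SMC1B and STAG3, help form the chromosome axis on which homologs synapse and recombine, and REC8 holds sister centromeres together until the second division. WAPL opens rings along the arms, whereas Shugoshin-2, the product of *Sgo2a*, recruits a phosphatase that shields centromeric REC8 from separase, the protease that cleaves kleisins.

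The series holds 4 *Arid1a* WT and 4 *Arid1a* cKO mRNA libraries, each from mouse spermatocytes that were enriched by Sta-Put, a sedimentation of testis cells at unit gravity. Animals of the cKO group were *Arid1a* fl/fl and carried 1 copy of *Stra8-Cre*, a transgene whose promoter drives Cre recombinase in spermatogonia. Cre deletes the floxed exons of *Arid1a*, which encodes a putative DNA-binding subunit of the SWI/SNF (BAF) chromatin remodeler. Animals of the WT group were *Arid1a* fl/fl or fl/+ without Cre, and so shared the floxed allele. The floxed line was on a CD1 background, and the paper does not give the background of the *Stra8-Cre* line crossed to it. Cells of adult males were pooled for each purification, the fractions were judged by light microscopy, and Cre excision was incomplete, so that some cells of the cKO group kept ARID1A. The labels call the libraries biological replicates but tie none to its own animals, so the p-values measure the spread between these libraries, which may be technical.

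Estimated counts summed to between 18308688 and 22044507 in the *Arid1a* WT libraries and between 15850961 and 21626772 in the *Arid1a* cKO libraries. *Arid1a* (Entrez 93760) stood at 105, 128, 121 and 98.8 CPM (counts scaled to library size) in WT and at 76.4, 81, 82.9 and 78.3 in cKO, a log2 fold change of -0.51 ± 0.07 (SE, quasi-likelihood test in edgeR, Benjamini-Hochberg adjusted p = 2.31e-05). Of 17643 genes tested, 74.0% were called at an adjusted p of 0.05 or less, 36.5% as higher and 37.5% as lower in cKO. CPM values of the genotypes did not overlap for 68.9% of the genes. Calls were therefore the rule in these libraries, and the size of a difference says more about a gene here than the fact that it was called.

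Markers of other testis cells also differed between genotypes. All 12 of 12 markers of round and elongating spermatids rose, with a median log2 fold change of 2.12 and a summed level of 6465 to 7360 TPM (a transcript's share of its library, scaled for transcript length) in WT against 26352 to 28175 in cKO. Of 8 pachytene markers, 3 rose and 5 fell, with a summed level of 7508 to 8608 TPM in WT and 6387 to 6740 in cKO. Among these pachytene markers, *Piwil1*, which encodes a piRNA-binding protein, fell from 1597 to 109 CPM on average. *Pgk2*, another of the 8, rose from 277 to 786 CPM. Of 7 leptotene and zygotene markers, 5 rose and 2 fell (summed level 50 to 57.6 TPM in WT, 57.6 to 60.3 in cKO), and of 10 markers of spermatogonia, 8 rose, 1 fell and 1 was not called (130 to 139 against 133 to 144). All 6 Sertoli cell markers fell (430 to 498 against 111 to 118), as did 5 of 6 Leydig cell markers (76.7 to 89.9 against 6.96 to 8.59). Of 7 markers of macrophages and blood, 5 rose and 1 fell (6.32 to 7.88 against 9.24 to 12.1), and no marker on these lists had a mean of 0 CPM in either genotype. In such bulk samples, fewer cells of a type and less RNA per cell cannot be told apart, and the part of the other cell types in the results on cohesin genes was not tested.

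Across the 10 cohesin genes, 7 rose and 3 fell in *Arid1a* cKO, and in each of the 10 the WT and cKO libraries did not overlap in CPM. Over all genes tested, 36.5% were called higher and 37.5% lower, and 68.9% did not overlap. Their median log2 fold change was 0.70, against -0.02 over all genes tested. The direction was not the same in all classes. All 3 kleisins and both SMC subunits rose, the STAG family was divided, the centromeric protector fell and the release factor barely moved. *Rec8*, *Stag2*, *Rad21l* and *Smc3* rose by 5.65-, 4.51-, 4.36- and 3.57-fold, and *Rad21* and *Smc1b* by 1.77- and 1.5-fold.

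**Figure D1:**
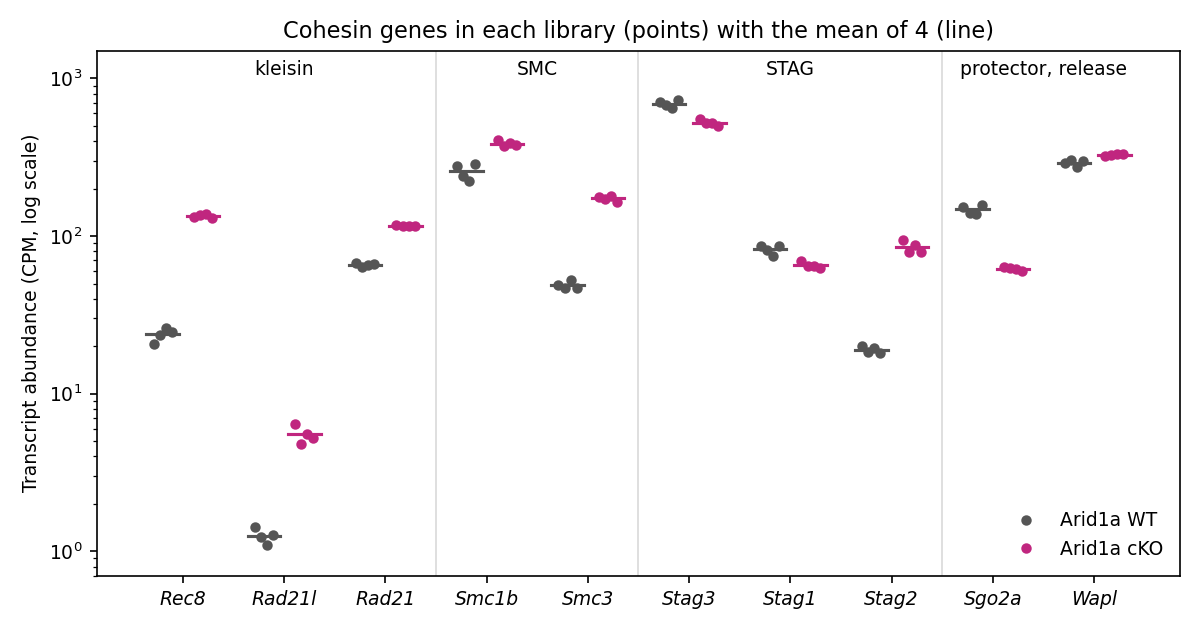
Level of each cohesin gene in CPM (vertical axis, log scale) in the 4 *Arid1a* WT (grey) and 4 *Arid1a* cKO (magenta) libraries, with 1 point a library and a line at the mean. The genotypes do not overlap for any of the 10 genes (68.9% of all genes tested do not), and *Rec8* goes from a mean of 23.8 to 134 CPM, and *Sgo2a* from 148 to 61.9 CPM.

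Sequence upstream of the start site is given for the kleisin and the SMC subunit with the largest rise and for the gene with the largest fall among the 10, to show the results on these genes beside their start sites. The windows are the 250 bases before a RefSeq start site (GRCm38.p6, plus strand for these 3 genes), 5′ to 3′, without any part that lies in an annotated exon or within the gene. They span chr14:55617916-55618001 for *Rec8* (86 bases, the part before the annotated gene), chr19:53600146-53600395 for *Smc3* and chr1:57985090-57985339 for *Sgo2a* (both 250 bases). Capitals mark matches to the CCAAT box on either strand.
Rec8: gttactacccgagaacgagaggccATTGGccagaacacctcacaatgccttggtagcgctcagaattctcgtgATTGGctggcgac
Smc3: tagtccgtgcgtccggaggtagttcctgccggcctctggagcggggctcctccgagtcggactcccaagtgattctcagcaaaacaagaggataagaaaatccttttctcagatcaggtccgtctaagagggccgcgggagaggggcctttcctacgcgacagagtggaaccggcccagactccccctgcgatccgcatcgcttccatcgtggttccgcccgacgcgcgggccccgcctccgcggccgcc
Sgo2a: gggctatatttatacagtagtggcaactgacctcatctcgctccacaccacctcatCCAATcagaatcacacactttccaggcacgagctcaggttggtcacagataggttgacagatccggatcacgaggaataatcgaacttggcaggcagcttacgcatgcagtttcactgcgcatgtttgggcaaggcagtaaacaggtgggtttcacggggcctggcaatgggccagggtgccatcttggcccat

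The *Smc3* window was 64.4% G or C and held 26 CG dinucleotides, the *Sgo2a* window was 52.8% G or C with 8, and the full 250 bases of *Rec8* were 56.0% G or C with 10, against medians of 52.4% and 6 over 32851 RefSeq windows of the same length. Matches to the letters of 5 motifs were searched on both strands in the full windows: the CRE core TGACG, the E-box CACGTG, the CCAAT box CCAAT, the E2F motif TTTNGCGC and the MYB motif TAACNG, which 17.8%, 6.02%, 33.8%, 1.13% and 19.8% of all windows held. *Rec8* held 3 CCAAT matches (at positions -226, -177 and -81 from the start site), *Sgo2a* held 1 (at position -194) and *Smc3* held none, and none of the other 4 motifs matched in these 3 windows. Rising and falling genes both held CCAAT matches, with 1 each for *Stag1*, *Stag3* and *Smc1b* and 2 for *Wapl*. *Stag3* also held an E-box and a MYB match, and *Wapl* a CRE core at position -17. The windows of *Stag1*, *Stag3* and *Wapl*, and the *Rec8* match at position -81, lie within the annotated gene. A match is a description of the letters, and its absence says only that these letters are not in this window. A second *Sgo2a* window, before another start site, held no match. The first 25 bases after the start site occurred in 1 GENCODE transcript of the gene for this second window and for *Rec8*. For *Smc3* and the printed *Sgo2a* window they occurred in 0, so these 2 start sites lack that backing. *Rad21* and *Stag2* are not among the windows used here.

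Among the kleisins, the meiotic genes rose by larger factors than the general one. *Rec8* (Entrez 56739, GRCm38.p6 chr14:55618002-55625395, plus strand), the kleisin that carries sister cohesion through meiosis, was at 20.8, 23.5, 26.2 and 24.6 CPM in WT and at 132, 136, 138 and 131 CPM in cKO. Every cKO library lay far above every WT library, and the 4 cKO libraries differed little among themselves. The mean went from 23.8 ± 2.27 to 134 ± 3.18 CPM (SD, n = 4 each), a log2 fold change of 2.50 ± 0.06 (SE, 95% confidence interval 2.36 to 2.64, edgeR, adjusted p = 1.18e-13).

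*Rad21l* (Entrez 668929, chr2:151644366-151670622, minus strand) encodes the kleisin of early prophase axes. Its levels were 1.43, 1.23, 1.1 and 1.27 CPM in WT and 6.46, 4.8, 5.55 and 5.27 CPM in cKO. It was the scarcest of the 10 genes in both genotypes, with 22 to 29 counts in a WT library and 82 to 120 in a cKO library, and its interval was the widest of the 10 genes. This amounts to a log2 fold change of 2.13 ± 0.15 (SE, 95% confidence interval 1.80 to 2.45, edgeR, adjusted p = 8.49e-09), equal to 4.36-fold.

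*Rad21* (Entrez 19357, chr15:51962604-51993538, minus strand), the kleisin of mitotic cohesin, was at 67.4, 64.1, 65.7 and 66.2 CPM in WT and at 117, 116, 116 and 116 CPM in cKO. The replicates were the tightest of the 10 genes in both genotypes, with coefficients of variation of 2.13% and 0.649%. Its log2 fold change was 0.82 ± 0.04 (SE, 95% confidence interval 0.73 to 0.91, edgeR, adjusted p = 2.49e-10), an interval that lies wholly below those of *Rec8* and *Rad21l*.

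Because the 3 kleisins compete for the same place in the ring, their shares were computed from TPM, which allows for transcript length. *Rec8* made up 34.9%, 38.8%, 44.2% and 39.9% of kleisin TPM in the WT libraries and 65.3%, 65.3%, 66.9% and 65.4% in the cKO libraries. *Rad21* made up 57.9% ± 3.45 (SD, n = 4) in WT and 30.8% ± 0.909 in cKO. *Rad21* was thus the most abundant kleisin transcript in every WT library and *Rec8* in every cKO library. The *Rad21l* share was 2.28% to 3.14% in WT and 2.95% to 4.09% in cKO, and the genotypes overlapped. Kleisin TPM summed to 45.6 ± 2.72 in WT and 139 ± 3.53 in cKO. No test was run on these shares or on the other shares and ratios of TPM given here, which are described by their spread over libraries.

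**Figure D2:**
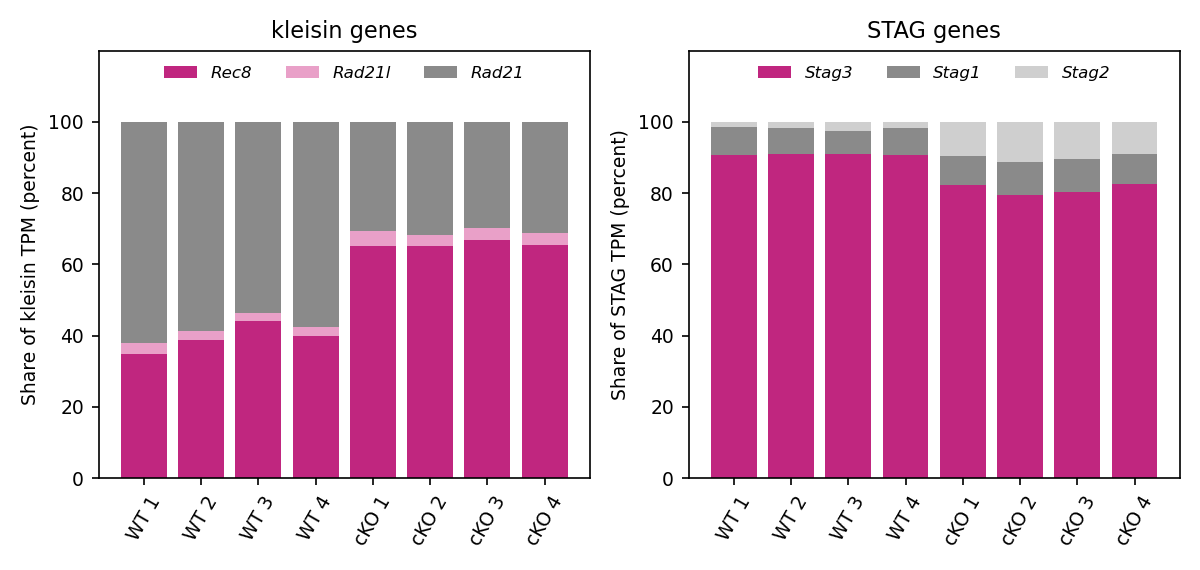
Share of each gene in the summed TPM of its family (vertical axis, percent) in each library, for the kleisins (left) and the STAG subunits (right), with 1 bar a library. *Rec8* takes 34.9% to 44.2% of kleisin TPM in WT and 65.3% to 66.9% in cKO, and *Stag2* takes 1.41% to 2.43% of STAG TPM in WT and 8.96% to 11.2% in cKO.

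Both SMC subunits rose, the shared one by more. *Smc3* (Entrez 13006, chr19:53600396-53645831, plus strand), a subunit of every cohesin ring, was at 49.2, 46.5, 52.3 and 46.7 CPM in WT and at 177, 171, 180 and 165 CPM in cKO. All cKO libraries lay far above all WT libraries. The genotypes differed by a log2 fold change of 1.83 ± 0.05 (SE, 95% confidence interval 1.72 to 1.95, edgeR, adjusted p = 3.97e-13).

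*Smc1b* (Entrez 140557, chr15:85064689-85131957, minus strand) encodes the meiotic partner of SMC3. It was at 280, 240, 224 and 285 CPM in WT and at 408, 371, 388 and 377 CPM in cKO. WT libraries varied more than for any other of the 10 genes (coefficient of variation 11.6%), yet the highest of them was below the lowest cKO library. Its log2 fold change was 0.58 ± 0.07 (SE, 95% confidence interval 0.43 to 0.74, edgeR, adjusted p = 4.48e-06).

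*Smc1a*, the X-linked somatic counterpart of *Smc1b*, was far scarcer and rose as well, from 4.43 to 7.98 CPM (log2 fold change 0.85 ± 0.10, SE, edgeR, adjusted p = 2.06e-06). *Smc1b* made up 98.2% ± 0.382 (SD, n = 4) of the TPM of the SMC1 pair in WT and 97.8% ± 0.126 in cKO, with overlapping libraries, so that the balance between the meiotic and the somatic SMC1 transcript hardly differed. By contrast, the TPM of *Smc3* over that of *Smc1a* and *Smc1b* together was 0.168 ± 0.0363 in WT and 0.376 ± 0.0199 in cKO. The genotypes did not overlap in this ratio, and SMC1 transcripts were the more abundant in every library.

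The STAG subunits, which bind the kleisin and help load and position the ring, did not move together. *Stag3* (Entrez 50878, chr5:138272514-138312397, plus strand), the meiotic STAG and the most abundant transcript of the 10 genes per length in both genotypes, fell. It was at 711, 677, 648 and 731 CPM in WT and at 556, 525, 521 and 500 CPM in cKO, with no overlap. *Stag3* thus had a log2 fold change of -0.40 ± 0.05 (SE, 95% confidence interval -0.51 to -0.28, edgeR, adjusted p = 1.13e-05), which makes WT 1.32-fold higher.

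*Stag1* (Entrez 20842, chr9:100597709-100958544, plus strand), one of the general STAG subunits, was at 86.5, 81.9, 74.8 and 86.3 CPM in WT and at 69.4, 64.3, 64.6 and 62.5 CPM in cKO. The log2 fold change was -0.34 ± 0.06 (SE, 95% confidence interval -0.46 to -0.21, edgeR, adjusted p = 9.19e-05). Per length the genotypes overlapped, at 24 to 29 TPM in WT and 21.4 to 25.7 TPM in cKO. With offsets for transcript length the log2 fold change was -0.09 and was no longer called (edgeR, adjusted p = 0.382). In limma it was -0.17 on log2(TPM + 1), not called (adjusted p = 0.0705), and -0.32 with TPM scaled to the listed genes, called (adjusted p = 0.00273).

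*Stag2* (Entrez 20843, chrX:42149297-42277186, plus strand), the other general STAG and the one X-linked gene of the 10, rose by 4.51-fold. It was at 20, 18.4, 19.5 and 18.1 CPM in WT and at 95, 79.5, 88.3 and 79.6 CPM in cKO, and every cKO library was above every WT library. In *Stag2* the log2 fold change was 2.17 ± 0.07 (SE, 95% confidence interval 2.03 to 2.32, edgeR, adjusted p = 9.38e-13). The X chromosome as a whole was higher in cKO. Of 799 X-linked genes tested, 66.6% were called higher, and their median log2 fold change was 1.32, against -0.06 for autosomal genes. *Stag2* lay above that median and *Smc1a*, at 0.85, below it.

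*Stag3* supplied 90.6% to 91% of STAG TPM in the WT libraries and 79.6% to 82.7% in the cKO libraries. *Stag2* went from 1.76% ± 0.453 (SD, n = 4) to 10% ± 0.93, and *Stag1* from 7.4% ± 0.538 to 8.7% ± 0.675. The libraries of the genotypes overlapped for none of the 3 shares. STAG TPM summed to 360 ± 11.3 in WT and to 270 ± 9.38 in cKO, the opposite direction to the kleisins. Kleisin TPM was 0.127 ± 0.00744 of STAG TPM in WT and 0.515 ± 0.0206 in cKO, and *Smc3* TPM was 0.0458 ± 0.00696 and 0.187 ± 0.00662 of it. STAG transcripts, most of them *Stag3*, thus outnumbered kleisin transcripts in all 8 libraries.

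The protector and the release factor, which act on rings already loaded, differed in direction and size. *Sgo2a* (Entrez 68549, chr1:57985340-58026277, plus strand) was at 154, 141, 139 and 157 CPM in WT and at 63.3, 62.9, 61.5 and 59.8 CPM in cKO. All cKO libraries lay within a narrow band well under the lowest WT library. *Sgo2a* had a log2 fold change of -1.26 ± 0.05 (SE, 95% confidence interval -1.37 to -1.14, edgeR, adjusted p = 2.26e-11), the largest fall among the 10 genes. Of the 31-base words in its transcripts, 4.76% also occurred in its near copy *Sgo2b*, the most shared sequence of the 10 genes, so a small part of its count could be misplaced.

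*Wapl* (Entrez 218914, chr14:34672379-34747983, plus strand) was at 289, 304, 276 and 300 CPM in WT and at 322, 328, 334 and 331 CPM in cKO. The groups did not overlap, with the highest WT library at 304 CPM and the lowest cKO library at 322 CPM. The log2 fold change was 0.17 ± 0.05 (SE, 95% confidence interval 0.07 to 0.27, edgeR, adjusted p = 0.00457), or 1.12-fold, the smallest of the 10. It was 0.43 with offsets for transcript length, and 0.07 without a call when libraries were scaled by their totals (edgeR, adjusted p = 0.0933).

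*Stag3* was followed in WT by *Wapl* (117 TPM), *Smc1b* (97.1) and *Sgo2a* (44.4), then by *Stag1* and *Rad21* (26.7 and 26.3, overlapping), *Rec8* and *Smc3* (18 and 16.5, overlapping), *Stag2* (6.35) and *Rad21l* (1.21). In cKO *Stag3* still led at 220 TPM, against 327 in WT. *Wapl* and *Smc1b* came next (147 and 132, overlapping), then *Rec8* (91.6), *Smc3* (50.5), *Rad21* (42.9), *Stag2* and *Stag1* (27.1 and 23.5, overlapping), *Sgo2a* (16.9) and *Rad21l* (4.82). *Rec8* thereby went from rank 7 to rank 4 and *Sgo2a* from rank 4 to rank 9, while *Stag3* and *Rad21l* kept the ends of the order. TPM are shares of a library, and the listed genes summed to 780735 to 811443 TPM in WT and 880901 to 886412 TPM in cKO, which makes TPM differences between genotypes depend on the base as well.

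The spread within a genotype was described by coefficients of variation. For CPM they ran from 2.13% (*Rad21*) to 11.6% (*Smc1b*) in WT and from 0.649% (*Rad21*) to 12.7% (*Rad21l*) in cKO. *Arid1a* WT replicate 3 had the lowest level for 6 of the 10 genes and the highest for *Rec8* and *Smc3*. *Arid1a* cKO replicate 1 had the highest level for 7 of the 10. With any 1 library left out, the log2 fold change of *Rec8* stayed within 2.44 to 2.55, that of *Sgo2a* within -1.28 to -1.21 and that of *Wapl* within 0.14 to 0.20, and all 10 genes were called in each such fit.

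A further 20 genes load, acetylate, cleave or otherwise act on cohesin, or belong to it (*Smc1a*, above). Of these, 9 rose, 10 fell and 1 was not called, with a median log2 fold change of -0.19, and 18 had no overlap between genotypes in CPM. These shares are to be read beside the 74.0% and 68.9% of all genes given above. The loader subunits *Nipbl* and *Mau2*, which place the ring on DNA, were both slightly lower on the count scale. *Nipbl*, whose mean was 937 CPM in WT and 835 in cKO, had a log2 fold change of -0.17 ± 0.05 (SE, edgeR, adjusted p = 0.005), and *Mau2* one of -0.25 ± 0.05 (edgeR, adjusted p = 0.000583). With length offsets *Mau2* was at -0.09 and not called (edgeR, adjusted p = 0.192), and its mean transcript length was 12.8% shorter in cKO without overlap. *Pds5a* and *Pds5b*, whose products bind the kleisin and serve both release and maintenance of cohesion, fell by 0.46 and 0.53 on the log2 scale (edgeR, adjusted p = 3.6e-06 and 1.01e-07). *Cdca5*, which encodes sororin, the antagonist of WAPL, was at 26.9 and 29.3 CPM (log2 fold change 0.13 ± 0.05, SE, edgeR, adjusted p = 0.039), a call that was lost or turned in most of the other analyses.

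The acetylation of SMC3 locks cohesin on DNA, and the genes of this cycle went in different directions. *Esco2*, one of the acetyltransferases, rose from 12.3 to 24.8 CPM (log2 fold change 1.01 ± 0.08, SE, edgeR, adjusted p = 4.93e-08), whereas *Esco1*, the other one, fell from 55.4 to 37.6 CPM (log2 fold change -0.56 ± 0.06, edgeR, adjusted p = 1.36e-06). The X-linked deacetylase gene *Hdac8* had only 3 to 6 counts in a WT library and 10 to 15 in a cKO library, and its log2 fold change of 1.71 ± 0.36 (edgeR, adjusted p = 0.000584) is imprecise. Among genes that couple cohesion to replication, *Dscc1*, a subunit of a clamp loader, rose from 5.66 to 23.4 CPM (log2 fold change 2.04 ± 0.08, edgeR, adjusted p = 1.21e-11). The helicase gene *Ddx11* fell from 61.5 to 15.6 CPM (log2 fold change -1.98 ± 0.08, edgeR, adjusted p = 1.73e-11), and *Chtf18*, the partner of *Dscc1* in the clamp loader, had a log2 fold change of -0.22 ± 0.06 (edgeR, adjusted p = 0.00417). The *Chtf18* value was -0.01 and not called with length offsets (edgeR, adjusted p = 0.962), and it was called in none of the 3 limma analyses of TPM.

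Genes that protect centromeric cohesion were split. *Meikin*, which encodes a meiosis-specific kinetochore protein that keeps Shugoshin at centromeres, fell from 24.9 to 11 CPM (log2 fold change -1.19 ± 0.11, SE, edgeR, adjusted p = 1.48e-07), the same direction as *Sgo2a*. The kinase genes *Bub1* and *Haspin*, which mark the centromeric histones, rose from 114 to 217 CPM and from 622 to 1057 CPM (log2 fold changes 0.93 ± 0.07 and 0.77 ± 0.06, edgeR, adjusted p = 1.5e-08 and 3.21e-08). *Sgo1*, the mitotic Shugoshin, was scarce and rose from 2.79 to 4.28 CPM (log2 fold change 0.61 ± 0.16, edgeR, adjusted p = 0.00266), a call that was lost in limma on log2(TPM + 1) (0.46, adjusted p = 0.0685). *Sgo2a* accounted for 96.5% ± 1.49 (SD, n = 4) of the summed TPM of *Sgo2a* and *Sgo1* in WT and 87% ± 3.04 in cKO. The genotypes did not overlap in this share, and *Sgo2a* remained the more abundant of this pair. *Sgo1* TPM itself overlapped, at 0.995 to 2.48 in WT and 1.58 to 3.02 in cKO.

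The genes of cohesin cleavage both fell. *Pttg1*, which encodes securin, the inhibitor of separase, went from 106 to 49.3 CPM (log2 fold change -1.11 ± 0.06, SE, edgeR, adjusted p = 3.29e-10), and *Espl1*, which encodes separase, from 260 to 210 CPM (log2 fold change -0.30 ± 0.05, edgeR, adjusted p = 4.4e-05). Of the loop anchors, *Ctcf* was at 36.1 and 40.3 CPM with overlapping libraries (log2 fold change 0.16 ± 0.06, edgeR, adjusted p = 0.0311) and turned to -0.20 with offsets for transcript length. *Ctcfl*, its germ-line paralog, was not called (log2 fold change -0.50 ± 0.37, edgeR, adjusted p = 0.228). It was at 22, 25.4, 81 and 18.3 CPM in WT and at 23.4 to 27.8 CPM in cKO, so that WT replicate 3 alone set the WT mean. Without that library its log2 fold change was 0.23 (edgeR, adjusted p = 0.0348).

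**Figure D3:**
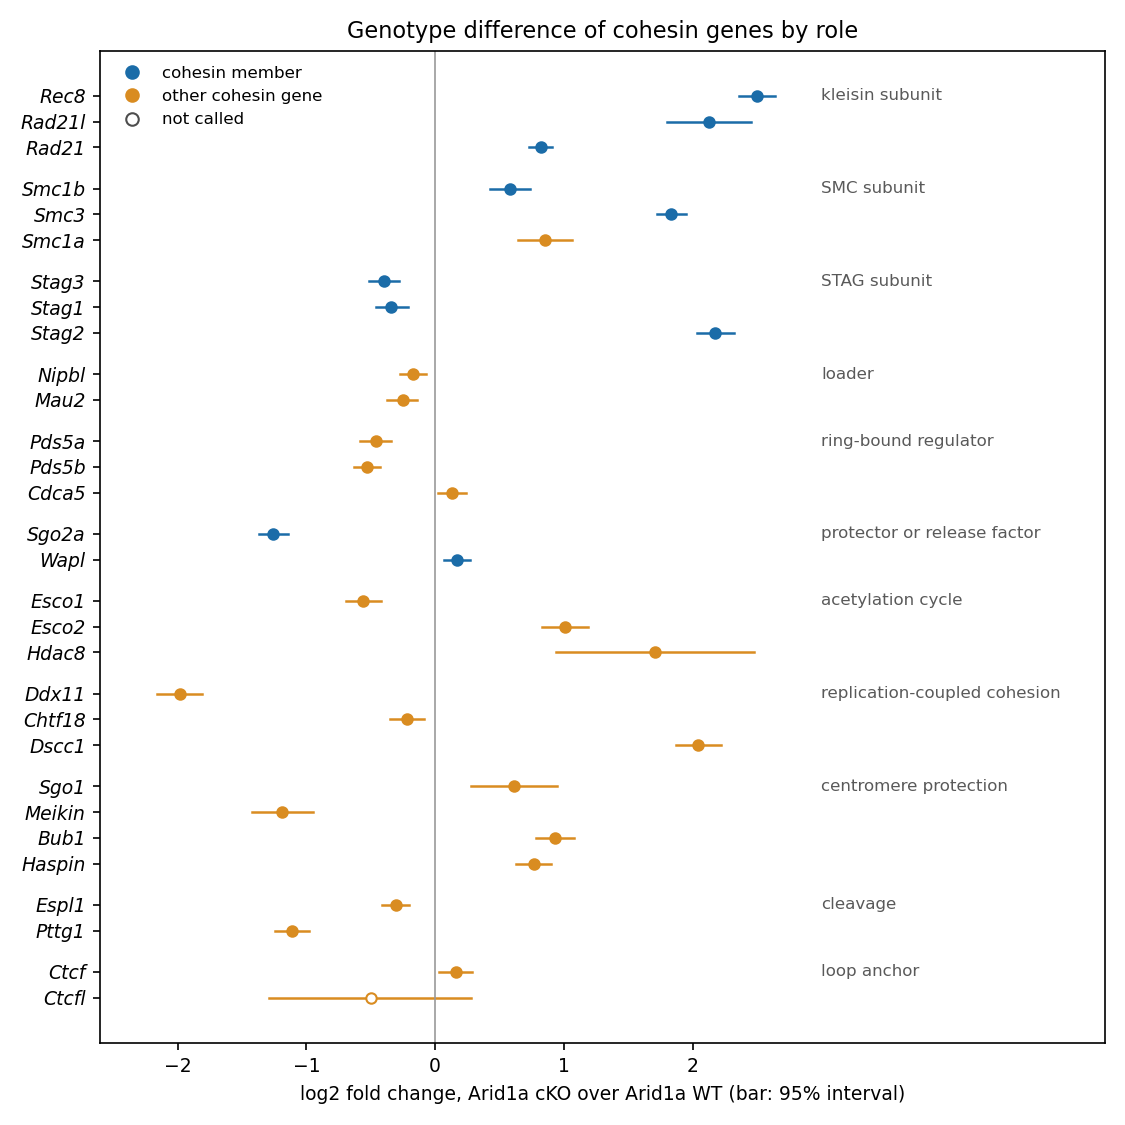
Log2 fold change of *Arid1a* cKO over *Arid1a* WT (horizontal axis) for the 10 cohesin genes (blue) and the 20 further cohesin genes (orange), ordered by role, with bars for the 95% confidence interval. The kleisin and SMC genes lie right of 0, the STAG genes lie on both sides, and *Ddx11*, *Sgo2a*, *Meikin* and *Pttg1* lie furthest left. An open point marks *Ctcfl*, which was not called.

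The counts and the TPM of a library together give the mean length of the transcripts that a gene's reads were assigned to. The length offsets were planned, whereas the comparison of this length between genotypes was chosen after the data had been seen. It did not overlap between genotypes for 28.4% of 13958 genes with at least 10 counts in every library. Among the 10 cohesin genes, *Wapl* and *Stag1* had shorter mean lengths in cKO. Relative to the WT mean, *Wapl* was at 0.95 to 1.05 in WT and 0.77 to 0.84 in cKO, and *Stag1* at 0.93 to 1.05 in WT and 0.75 to 0.91 in cKO. *Rad21l* was also without overlap, but its length differed by only 0.404%. For *Rec8*, *Rad21*, *Smc1b*, *Smc3*, *Stag3*, *Stag2* and *Sgo2a* the libraries overlapped, *Stag2* being the most variable (0.74 to 1.26 in WT). The 3 of 10 genes without overlap are thus near the share over all genes. The length offsets used above are computed from this same length, so a gene whose length differed also shifts with them by construction.

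**Figure D4:**
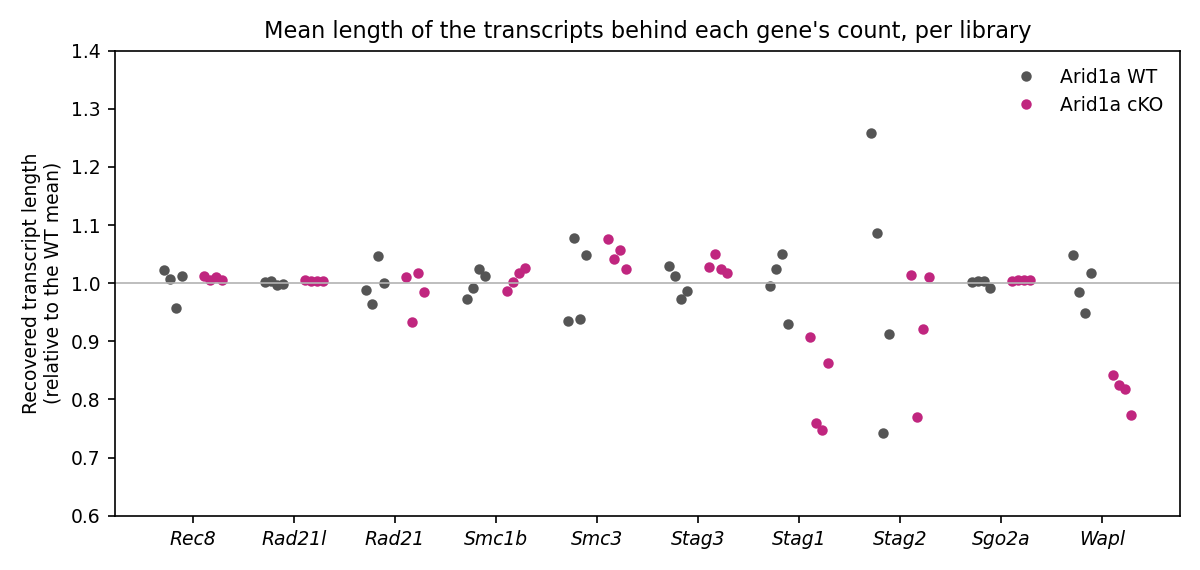
Mean transcript length behind each gene's count in each library, relative to the WT mean of that gene (vertical axis, ratio), for *Arid1a* WT (grey) and *Arid1a* cKO (magenta). The cKO libraries of *Wapl* lie at 0.77 to 0.84 and those of *Stag1* at 0.75 to 0.91, below all WT libraries of the same gene.

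Over 19 other analyses of the same files, none of the 10 genes changed direction, and 186 of 190 values kept their call. *Wapl* and *Stag1* moved furthest with the length offsets given above. With TPM scaled to the listed genes, which shifted the median of all genes to -0.133, the log2 fold changes were 1.35 for *Rad21l*, 0.54 for *Rad21*, 0.29 for *Smc1b* and -0.72 for *Stag3*, and all 4 stayed called (limma on log2(TPM + 1) with Benjamini-Hochberg adjustment). The pseudocount understates changes of low genes such as *Rad21l*. *Rec8*, *Smc3*, *Stag2* and *Sgo2a* ranged from 2.15 to 2.55, 1.43 to 1.87, 1.84 to 2.21 and -1.50 to -1.21 over all these analyses.

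**Figure D5:**
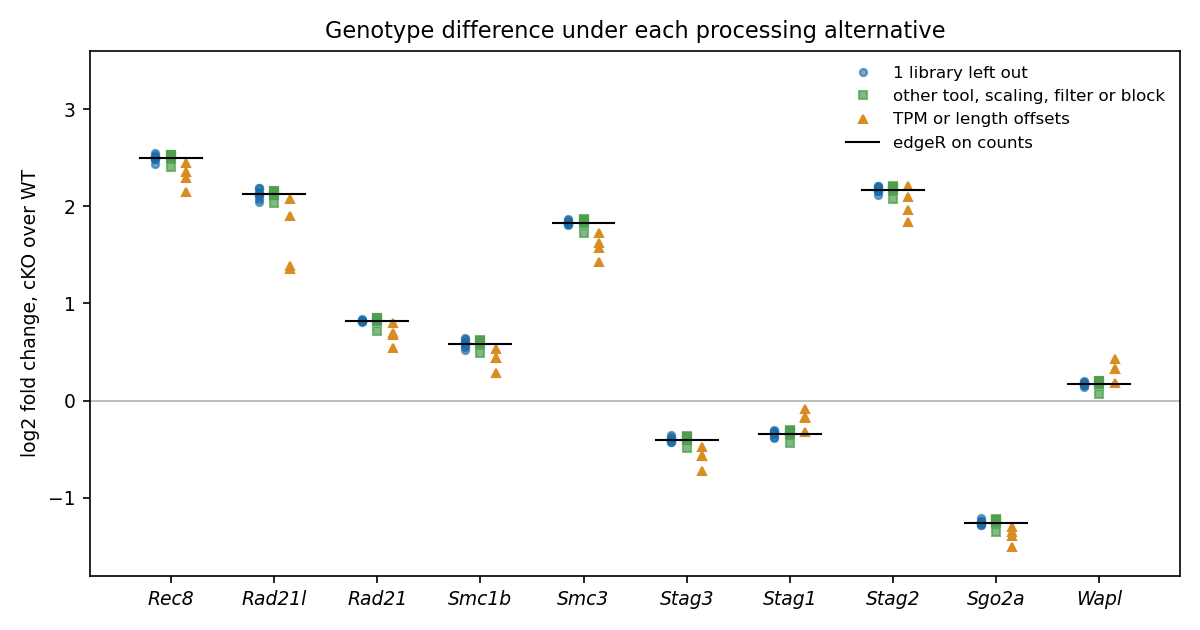
Log2 fold change of cKO over WT (vertical axis) of each cohesin gene in the reported edgeR analysis (line) and in 19 other analyses: 1 library left out (blue), another tool, scaling, filter or replicate block (green), and TPM or length offsets (orange). No gene crosses 0, and *Stag1* and *Wapl* come closest, at -0.09 and 0.07.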

How the data were processed

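RNA was measured in 4 *Arid1a* WT and 4 *Arid1a* cKO libraries. Genotype and number came from each label, and every per-sample column matched 1 library. The authors quantified reads with Salmon on mm10, summed transcripts to genes with tximport and deposited estimated counts, without scaling for depth or length. TPM, scaled to the whole library, were deposited beside them. Their table of log2 fold changes, p-values and adjusted p-values was not used for any result. RefSeq (GRCm38.p6) gave symbols for 21036 of 21058 genes, and coordinates. GENCODE M21 transcripts gave the shared 31-base words and were searched for the bases after each start site.

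Estimated counts were rounded to whole numbers; 54.9% of the values were not whole. Genes with 10 or more counts over all libraries were fitted with edgeR 4.0.16 in R 4.3.3 (TMM factors, quasi-likelihood fit and test, genotype only), with Benjamini-Hochberg adjustment over 17643 genes and a threshold of 0.05. The spread between libraries (common biological coefficient of variation 0.0709) sets the precision. SE was the log2 fold change over the root of the F statistic. CPM used TMM-scaled library sizes.

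The alternatives were DESeq2 1.42.0, limma 3.58.1 on log2(TPM + 1) and log2(TPM + 0.1), library totals, DESeq2 size factors, autosomal TMM factors, 2 other filters, length offsets recovered from counts and TPM, a replicate block, an adjusted p of 0.01 and each library left out. TPM scaled to the listed genes was added after seeing the data. The fits were tested on simulated data in which 200 of 17542 genes differed 2-fold. There edgeR recovered 98.5% of them, and 5.29% of its calls were false. Far fewer genes changed than the 74.0% called here, so the simulation does not cover this setting or smaller changes. Python 3.11.15, pandas 2.3.3 and matplotlib 3.10.9 summarised and plotted.

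The 10 genes, the other lists and the rule were chosen with earlier results of these data known. By the rule, every one of the 10 genes and *Smc1a* was named with values, and of the further cohesin genes those with the largest called change in each role (up to 3 in each direction) and those not called. Replicate pairs differed by more than counting noise (chi-square per degree of freedom 4.38 to 18 in WT and 1.71 to 3.45 in cKO), so none was treated as a repeat deposit of another. This does not show that they came from separate animals. Other assays of the study were not analysed here.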

Additional observations from a re-analysis of the deposited data

Results flagged for a closer look

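In 6 of 92 groups of 4 libraries (46 measures in each genotype), the most extreme library lay apart from the other 3 by Dixon's 95% criterion, which chance would give in about 4.6. For the *Rec8* share of kleisin TPM, *Arid1a* cKO replicate 3 was high, at 66.9% against 65.3% to 65.4% (gap over range 0.921). For the ratio of *Smc3* TPM to that of *Smc1a* and *Smc1b*, *Arid1a* cKO replicate 1 was low, at 0.346 against 0.382 to 0.389 (0.841). For the *Sgo2a* share of the summed TPM of *Sgo2a* and *Sgo1*, *Arid1a* cKO replicate 3 was high, at 91.5% against 84.9% to 86% (0.841). That library was nearer to the lowest *Arid1a* WT library (94.7%) than to the next cKO library. Its *Sgo1* level of 4.16 CPM lay within the cKO range of 3.71 to 4.88 CPM. Its mean *Sgo1* transcript length was 1.275 of the WT mean, against 0.680, 0.609 and 0.880 in cKO replicates 1, 2 and 4.

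Among the further cohesin genes, *Ctcfl* was high in *Arid1a* WT replicate 3, at 81 CPM against 18.3 to 25.4 (0.887), *Chtf18* was low in the same library, at 26.5 against 30 to 30.4 (0.915), and *Pds5a* was low in *Arid1a* WT replicate 4, at 72.7 against 82.5 to 84.3 (0.846).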

How the results depend on the processing

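Of 190 values for the 10 cohesin genes over 19 alternatives, 186 kept their direction and call, 4 lost the call and 0 reversed. *Stag1* lost it with length offsets (-0.09, adjusted p = 0.382) and in limma on log2(TPM + 1) and log2(TPM + 0.1) (-0.17 and -0.18, adjusted p = 0.0705 and 0.07), and *Wapl* with library totals (0.07, adjusted p = 0.0933; 0.07 to 0.43 over all alternatives). With an adjusted p of 0.01 all 10 were called. Genes called higher numbered 4854 to 6610 and genes called lower 5972 to 7624 over the alternatives.

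Of 380 values for the further cohesin genes, 22 lost their call and 8 reversed. *Ctcf* reversed to -0.20 with length offsets, to -0.28 and -0.29 in limma on log2(TPM + 1) and log2(TPM + 0.1), and to -0.43 with TPM scaled to the listed genes, an alternative chosen after seeing the data. *Cdca5* was at -0.01, -0.01 and -0.16 in the same 3 limma analyses. *Ctcfl* ranged from -0.71 to 0.23 as each library was left out, the latter without *Arid1a* WT replicate 3. *Chtf18*, *Mau2* and *Sgo1* lost their calls in some analyses with TPM or length offsets. *Cdca5* lost its call without *Arid1a* WT replicate 1 or 2 or any 1 cKO replicate, and *Ctcf* without cKO replicate 1, 2 or 3. With library totals neither was called (*Cdca5* 0.03 and *Ctcf* 0.06, edgeR, adjusted p = 0.671 and 0.461). *Cdca5* was also not called with length offsets or with no filter beyond 1 count. The causes were not tested.

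Same-numbered libraries of the genotypes did not deviate together (correlations 0.18, 0.0116, 0.0822 and -0.153), and nothing in the labels pairs them. With the replicate number as a block, 6429 genes were called higher and 6671 lower, *Rec8* stood at 2.50, all 10 cohesin genes kept their call, and *Cdca5* was no longer called (0.13, adjusted p = 0.0576). Depth limits *Rad21l*, with 22 to 29 counts in a WT library, and *Hdac8*, with 3 to 6.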
